A study of Mus musculus with 6 samples.

Results

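The killer cell lectin-like receptors described here are 10 genes of cultured mouse CD8+ effector T cells (Teff), compared between *Scd-1*-/- and wild-type (WT) mice. They were chosen by name, with earlier results of these data known. All 10 symbols (*Klrg1*, *Klre1*, *Klrk1*, *Klrd1*, *Klrc1*, *Klrc2*, *Klrc3*, *Klrb1c*, *Klra7* and *Klri2*) were found once in the deposited tables, among 34745 genes. Of these, 7 had a mean of at least 1 FPKM (fragments per kilobase of transcript, scaled to library size) over the 6 libraries, and *Klrc2*, *Klrc3* and *Klri2* did not. The question was whether these receptors differ in effector cells that lack stearoyl-CoA desaturase 1, the enzyme that makes oleate and palmitoleate from saturated fatty acids.

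Each genotype had 3 RNA-seq libraries, numbered 1 to 3. The WT mice were purchased C57BL/6J animals, and the *Scd-1*-/- mice were a donated B6.129-Scd1tm1Ntam/J line that lacks the gene in all tissues. All were males of 6 to 8 weeks. They were not described as littermates, so strain history and genotype cannot be told apart, and nothing says whether a library is 1 mouse or a pool. Both groups had the same culture. CD8+ cells were taken from spleen with an isolation kit and stimulated with anti-CD3 (5 μg/mL) and anti-CD28 (0.5 μg/mL) plus IL-2 (100 U/mL) for 3 days, then IL-2 alone until harvest on day 6. The libraries held 14034479 to 15866216 counts. *Scd1*, the deleted gene, had 4272, 3074 and 3761 counts in WT and 30, 36 and 20 counts in *Scd-1*-/- libraries. Summed over 9 markers of T cells, of which only *Cd8a* and *Cd8b1* are CD8 genes, the level was 2898 to 3594 FPKM in WT and 2980 to 3393 FPKM in *Scd-1*-/- libraries. Of the 9, 0 passed the thresholds given below in edgeR or DESeq2 (2 had an unadjusted p under 0.05 in edgeR). That sum was mostly of CD3 and T cell receptor genes. *Cd8a* itself had 45.9 ± 2.42 FPKM in WT against 32.7 ± 4.46 FPKM without *Scd-1* (log2FC -0.46, edgeR adjusted p = 0.297) and *Cd5* 102 ± 12.2 and 74.3 ± 10.3 FPKM (-0.44, edgeR adjusted p = 0.387), both lower in every *Scd-1*-/- library, and *Cd8b1* had 298 ± 28.5 and 239 ± 52.6 FPKM (-0.30), with overlap. Replicate 1 of both genotypes stood apart from replicates 2 and 3, as a chi-square per degree of freedom of 51.3 to 62.1 against replicates 2 and 3 of its own genotype, where replicates 2 and 3 differed by 12.2 (*Scd-1*-/-) and 14.8 (WT). All pairs differed by more than counting noise, so none was merged as 1 library deposited again, which does not show that they came from separate animals.

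Killer cell lectin-like receptors are C-type lectin-like membrane proteins, first known from natural killer (NK) cells and also made by activated and differentiated CD8 T cells. Inhibitory members carry cytoplasmic motifs that recruit phosphatases, whereas activating members have short tails and signal through adaptor proteins such as DAP10 and DAP12. CD94, the product of *Klrd1*, pairs with an NKG2 chain from a *Klrc* gene, so that an inhibitory and an activating receptor can share a chain and a ligand. KLRG1 on CD8 T cells is the usual surface marker of short-lived, terminally differentiated effector cells.

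The 10 genes lie on chromosome 6 of GRCm38, and 9 of them fall in a single receptor cluster, of which sequences are shown because the reading of the *Klrc* counts turns on them. The first 90 coding bases of *Klrc1* (chr6:129678821-129678910, minus strand), *Klrc2* (chr6:129660467-129660556, minus strand) and *Klrc3* (chr6:129643199-129643288, minus strand), each within 1 exon of the GENCODE M21 transcripts, read as follows, with the only base that differs between *Klrc2* and *Klrc3* in capitals.
Klrc1: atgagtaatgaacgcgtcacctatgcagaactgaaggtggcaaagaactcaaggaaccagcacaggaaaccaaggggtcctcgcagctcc
Klrc2: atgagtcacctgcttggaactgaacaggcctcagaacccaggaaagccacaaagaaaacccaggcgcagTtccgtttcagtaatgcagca
Klrc3: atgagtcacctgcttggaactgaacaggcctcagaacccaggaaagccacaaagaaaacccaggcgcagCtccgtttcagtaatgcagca
Counted from 1 at the start codon, with the *Klrc2* base first, this base is T70C. The *Klrc1* stretch differs from both along most of its length. Over the whole coding sequence, *Klrc2* and *Klrc3* were identical at 89.2% of bases, *Klrc1* and *Klrc2* at 82.2%, and *Klrc1* and *Klrc3* at 79.6%. Of all 50-base words of the transcript, 38.9% in *Klrc2*, 40.2% in *Klrc3* and 12.7% in *Klrc1* also occurred in another receptor gene. *Klrb1c* shared 8.70% of its words, mostly with *Klrb1a*, and *Klri2* shared 1.19%, whereas the other 5 genes shared none. The rule for reads matching more than 1 gene was not given in the sources used here, so single values of *Klrc2* and *Klrc3* are uncertain.

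Promoter sequence of RefSeq on GRCm38 was at hand for 7 of the 10 genes, and the 250 bases before the start site are printed for *Klrc1*, *Klra7* and *Klrk1*, whose windows lie outside the GENCODE M21 limits of the gene. *Klrc1* and *Klra7* are a pair of inhibitory receptors whose genotypes did not overlap, and *Klrk1* is an activating receptor whose genotypes did. Capitals mark the Runx motif, TGTGGT or its reverse complement ACCACA.
Klrc1, chr6:129678974-129679223, minus strand: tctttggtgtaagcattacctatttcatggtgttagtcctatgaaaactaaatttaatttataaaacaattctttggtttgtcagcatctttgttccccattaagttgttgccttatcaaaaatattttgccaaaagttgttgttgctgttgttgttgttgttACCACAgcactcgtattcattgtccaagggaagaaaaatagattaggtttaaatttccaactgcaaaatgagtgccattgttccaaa
Klra7, chr6:130233323-130233572, minus strand: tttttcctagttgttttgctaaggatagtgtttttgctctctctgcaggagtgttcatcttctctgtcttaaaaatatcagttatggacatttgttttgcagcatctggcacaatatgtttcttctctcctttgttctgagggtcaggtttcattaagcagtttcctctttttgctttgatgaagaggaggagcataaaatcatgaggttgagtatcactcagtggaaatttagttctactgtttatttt
Klrk1, chr6:129623865-129624114, minus strand: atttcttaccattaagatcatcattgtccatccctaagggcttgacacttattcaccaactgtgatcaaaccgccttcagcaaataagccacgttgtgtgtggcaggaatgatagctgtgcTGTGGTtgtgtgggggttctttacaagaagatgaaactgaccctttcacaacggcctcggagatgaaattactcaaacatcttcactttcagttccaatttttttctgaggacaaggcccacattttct
Runx proteins are transcription factors of CD8 T cells. Their motif began 87 bases before the start in *Klrc1* and 129 bases before it in *Klrk1*, and these letters were not in the *Klra7* window. It was also found 89 bases before a start of *Klrb1c*, 229 bases before a start of *Klre1*, and at 76 and 49 bases in both *Klrc2* and *Klrc3*, so that 6 of the 7 genes held it against 15.9% of the 27025 genes with such a window. The *Klrc2* and *Klrc3* windows are near copies and are no separate examples. GGTGTG (T-box, either strand) occurred in 0 of the 7 genes against 18.3% of all genes, and CTTTGA (TCF, either strand) in 1 of the 7, *Klra7*, against 15.8%. These are matches of letters, and binding was not measured.

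All 10 receptor genes had a positive log2 fold change (log2FC, *Scd-1*-/- over WT, with its standard error as SE), and in 6 of them (*Klrg1*, *Klre1*, *Klrb1c*, *Klra7*, *Klrc1* and *Klrc2*) every *Scd-1*-/- library lay above every WT library. Of the 7 genes past the FPKM minimum, this held for 5, where 7.67% of the 9627 genes past that minimum showed it (6.31% of the 17192 genes with any count). *Klrg1* and *Klrb1c*, with WT means of 0.658 and 0.748 FPKM, reached this minimum only through their *Scd-1*-/- libraries. Every count and median over the 7 genes includes both. The genes were also chosen with earlier results of these data known, so shares of all genes beside theirs are a description. *Klrg1* and *Klre1* rose past the study's thresholds, which ask for a log2FC of 1 or more in size together with an unadjusted p below 0.001, here from the quasi-likelihood test of edgeR. Of all 9627 genes, 0.499% passed upwards. A block for the replicate number takes out differences among all 3 numbers, although neither labels nor methods say that same-numbered libraries are pairs. With this block, 5 of the 10 receptors passed (*Klrg1*, *Klre1*, *Klrb1c*, *Klra7* and *Klrc2*), 4 of them among the 7 past the minimum, where 1.19% of all genes passed upwards. The median log2FC of the 7 genes was 1.75, and that of all 9627 genes was -0.000506. In DESeq2, 6 of the 10 passed the same thresholds, 5 of them among the 7, where 1.08% of all genes passed upwards. After Benjamini-Hochberg (BH) adjustment, 0 of the 10 stayed below 0.05 in edgeR without the block (upwards, 0.0727% of the 9627 genes did), although 7 of the 10 had an unadjusted p below 0.05 (5 of the 7, against 5.42% of all genes upwards). With the block 6 of the 10 stayed below 0.05, 5 of them among the 7, against 2.64% of all genes upwards, and so did 6 of the 10 in DESeq2, against 1.67%. In bulk RNA, a change in the number of cells that carry a receptor and a change in RNA per cell cannot be told apart.

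**Figure D1:**
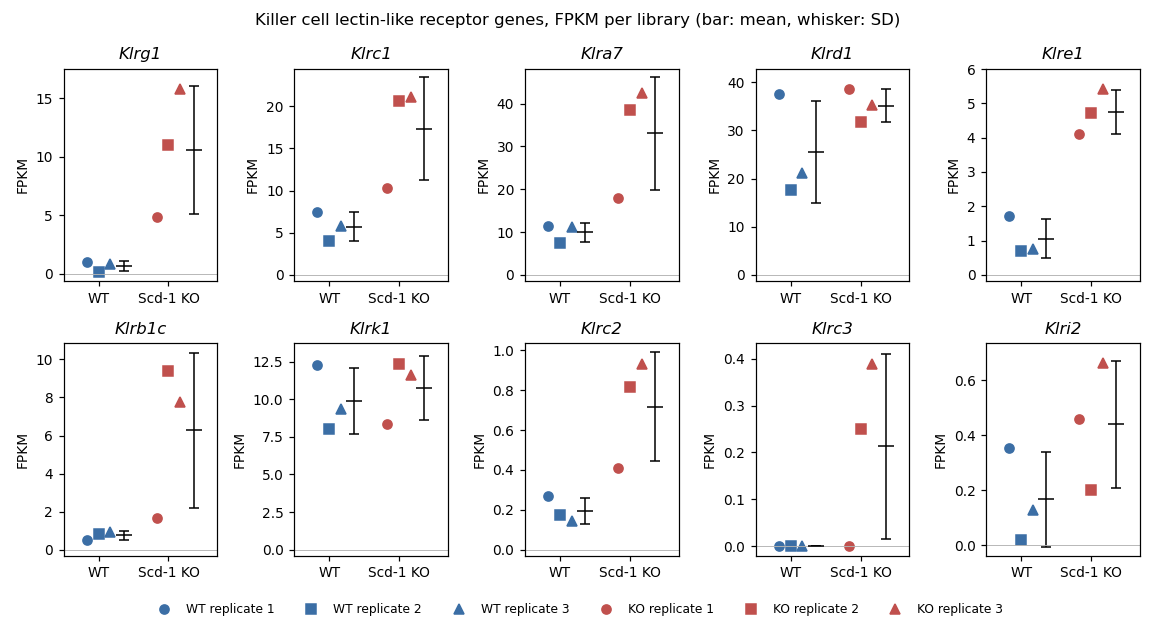
FPKM (vertical axes, linear, a separate scale for each gene) of the 10 receptor genes in the 3 WT and 3 Scd-1 KO (*Scd-1*-/-) libraries. Symbols give the replicate number, and bars with whiskers give the mean and SD of 3 libraries. Both genotypes are apart in *Klrg1*, *Klrc1*, *Klra7*, *Klre1*, *Klrb1c* and *Klrc2*, and replicate 1 is the lowest *Scd-1*-/- library in each of these.

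*Klrg1* (ENSMUSG00000030114, chromosome 6, 122270596 to 122282882, minus strand) encodes an inhibitory receptor for cadherins. Its level was 0.979, 0.151 and 0.845 FPKM in WT replicates 1, 2 and 3 and 4.86, 11.0 and 15.8 FPKM in *Scd-1*-/- replicates 1, 2 and 3. The lowest *Scd-1*-/- library thus lay above the highest WT library. The WT values rest on few counts, 21, 3 and 17, against 107, 220 and 354 in *Scd-1*-/- libraries. The WT mean of 0.658 ± 0.444 FPKM and the *Scd-1*-/- mean of 10.6 ± 5.47 FPKM (SD, n = 3 each) gave a log2FC of 4.0 (SE 0.657) with a BH-adjusted p of 0.0847 from edgeR's test. This was the largest log2FC among the 9 receptors with a count in WT. With the block, the edgeR adjusted p was 0.0108 at a log2FC of 3.92. Without WT replicate 3 (4.19) or without *Scd-1*-/- replicate 3 (3.59), *Klrg1* did not pass the thresholds, as the unadjusted p from edgeR exceeded the limit in both.

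*Klrc1* (ENSMUSG00000030167, 129666015 to 129678973, minus strand) encodes NKG2A, the inhibitory partner of CD94. It was at 7.45, 3.97 and 5.76 FPKM in the WT libraries and at 10.3, 20.7 and 21.1 FPKM in the *Scd-1*-/- libraries, in replicate order. The groups did not overlap, although replicate 1 of each was close to the other (1.38-fold within replicate 1, against 5.20-fold and 3.67-fold within replicates 2 and 3). Its log2FC of 1.62 (SE 0.341, means 5.73 ± 1.74 and 17.4 ± 6.13 FPKM) had an edgeR adjusted p of 0.147, short of the thresholds. With the block the edgeR adjusted p was 0.0393 and the thresholds were still not met, while they were without *Scd-1*-/- replicate 1 (1.88), in replicates 2 and 3 alone (2.14), in DESeq2 (1.62) and with no FPKM minimum (1.62).

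*Klra7* (ENSMUSG00000067599, 130218605 to 130233322, minus strand) encodes Ly49G, an inhibitory receptor of the Ly49 family for MHC class I. WT libraries had 11.4, 7.37 and 11.1 FPKM and *Scd-1*-/- libraries 18.0, 38.6 and 42.6 FPKM. All *Scd-1*-/- values exceeded all WT values, and replicate 1 was again the lowest of its group. The log2FC was 1.75 (SE 0.342, edgeR adjusted p = 0.118), and *Klra7* rose past the thresholds only with the block (1.69, edgeR adjusted p = 0.0261), without *Scd-1*-/- replicate 1 (2.04), in replicates 2 and 3 alone (2.17), in DESeq2 (1.75) and with no FPKM minimum (1.75).

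The shared chain *Klrd1* (ENSMUSG00000030165, 129591782 to 129598775, plus strand), which encodes CD94, had the highest mean level of the 10 in either genotype, although *Klra7* was higher in *Scd-1*-/- replicates 2 and 3. Its level was 37.6, 17.7 and 21.2 FPKM in WT and 38.6, 31.7 and 35.2 FPKM in *Scd-1*-/- libraries. The groups overlapped, because WT replicate 1 lay among the *Scd-1*-/- libraries. The means were 25.5 ± 10.6 and 35.2 ± 3.44 FPKM (SD, n = 3 each), and the 95% interval of the log2FC ran from -0.184 to 1.15 around 0.48 (edgeR adjusted p = 0.641), so the interval reached past a log2FC of 1. Without WT replicate 1 the log2FC was 0.90, and in replicates 2 and 3 alone it was 0.82 with an edgeR adjusted p of 0.00638, below the log2FC threshold in both.

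The activating partners of CD94 were rare. *Klrc2* (ENSMUSG00000052736, 129647496 to 129660689, minus strand), which encodes NKG2C, had 30, 18 and 15 counts in WT and 47, 85 and 109 counts in *Scd-1*-/- libraries, or 0.195 ± 0.0652 and 0.719 ± 0.274 FPKM (SD, n = 3 each). The groups were apart, and replicate 1 held the lowest *Scd-1*-/- value. In the fit to all 17192 genes with a count, its log2FC was 1.89 (SE 0.429, edgeR adjusted p = 0.113). It passed the thresholds with the block (1.84, edgeR adjusted p = 0.0293), in DESeq2 (1.91), in replicates 2 and 3 alone (2.50), and without replicate 1 of WT (2.21) or of *Scd-1*-/- (2.19). *Klrc3* (ENSMUSG00000033027, 129639064 to 129643337, minus strand), which encodes NKG2E, had 0 counts in all WT libraries and 0, 4 and 7 counts in *Scd-1*-/- libraries. The overlap is at 0, since *Scd-1*-/- replicate 1 had none either. Against a floor of 3 counts over the WT group, the *Scd-1*-/- level of *Klrc3* was 3.5-fold higher. This value allows for counting error in WT only and takes the 11 *Scd-1*-/- counts as exact, so it is no lower bound. The difference in *Klrc3* did not pass edgeR's test (BH-adjusted p = 0.548).

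Because reads may have been split among the 3 *Klrc* genes, their sum was taken as well. Summed over *Klrc1*, *Klrc2* and *Klrc3*, WT libraries had 21.6, 11.8 and 16.2 CPM (counts scaled to library size) and *Scd-1*-/- libraries 30.1, 60.8 and 63.0 CPM. No *Scd-1*-/- library overlapped the WT range, and the difference of 1.60 in mean log2 CPM had p = 0.1 in a two-sided exact permutation test, the smallest that 3 against 3 libraries can give. *Klrc1* made up 96.5%, 95.8% and 97.6% of the summed FPKM in WT and 96.2%, 95.1% and 94.1% in *Scd-1*-/- libraries. Taken from counts, which are not scaled to length, its mean share was 91.2% ± 2.22 in WT and 89.3% ± 0.827 without *Scd-1* (SD, n = 3 each). Most *Klrc* signal was thus of the inhibitory gene on both scales. The shares of FPKM overlapped and differed by -1.51 percentage points (exact permutation p = 0.2), lower in *Scd-1*-/- in all 3 replicate pairs. The shares of counts (exact permutation p = 0.3) were lower in replicates 1 and 3 and higher in replicate 2. Relative to *Klrd1*, the summed *Klrc* FPKM was 0.205, 0.235 and 0.279 in WT and 0.277, 0.686 and 0.637 in *Scd-1*-/- libraries. The ratio in *Scd-1*-/- replicate 1 lay within the WT range, and the difference of 1.06 in mean log2 ratio had an exact permutation p of 0.2 (0.1 from counts in place of FPKM). The ratio was higher in *Scd-1*-/- in all 3 replicate pairs. With libraries paired by replicate number, the sum, the share and the ratio each had an exact permutation p of 0.25, the smallest that 3 pairs can give.

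*Klrk1* (ENSMUSG00000030149, 129610323 to 129623864, minus strand) encodes NKG2D, the activating receptor for stress-induced ligands. It was at 12.3, 8.05 and 9.35 FPKM in WT and at 8.35, 12.4 and 11.6 FPKM in *Scd-1*-/- libraries. The groups overlapped almost entirely, with replicate 1 higher in WT (0.680-fold) and replicates 2 and 3 higher in *Scd-1*-/- Teff (1.54-fold and 1.24-fold). The log2FC of 0.14 had a 95% interval from -0.364 to 0.649 and an edgeR adjusted p of 0.895, so a log2FC of 1 lay outside the interval. In replicates 2 and 3 alone the log2FC was 0.50, with an edgeR adjusted p of 0.0324.

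*Klrb1c* (ENSMUSG00000030325, 128778485 to 128789215, minus strand) encodes NK1.1, an activating receptor used as a surface marker of NK cells in C57BL/6 mice. WT libraries had 0.501, 0.804 and 0.938 FPKM and *Scd-1*-/- libraries 1.66, 9.39 and 7.79 FPKM. All *Scd-1*-/- libraries were higher, with replicate 1 far below replicates 2 and 3. Its log2FC was 3.09 (SE 0.613, means 0.748 ± 0.224 and 6.28 ± 4.08 FPKM), with an edgeR adjusted p of 0.121. It passed the thresholds with the block (2.88, edgeR adjusted p = 0.00591), without *Scd-1*-/- replicate 1 (3.55), in replicates 2 and 3 alone (3.33), in DESeq2 (3.09) and with no FPKM minimum (3.09). A predicted gene, *Gm44511*, overlaps *Klrb1c* on the same strand and had 8 counts over the 6 libraries.

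*Klre1* (ENSMUSG00000050241, 129577905 to 129585827, plus strand) encodes a chain that pairs with KLRI1 or KLRI2 into an inhibitory or an activating receptor. Its level was 1.71, 0.688 and 0.761 FPKM in WT and 4.11, 4.72 and 5.41 FPKM in *Scd-1*-/- libraries. The *Scd-1*-/- libraries were close to each other and all above WT, and the highest WT library was replicate 1. The log2FC was 2.18 (SE 0.381, means 1.05 ± 0.568 and 4.75 ± 0.652 FPKM) with an edgeR adjusted p of 0.0907, and with the block it was 2.27 with an edgeR adjusted p of 0.0130. *Klre1* no longer passed when replicate 2 or 3 of WT was left out (1.95 and 1.98), nor when replicate 2 or 3 of *Scd-1*-/- was (2.19 and 2.08). Its activating partner *Klri2* (ENSMUSG00000043932, 129729041 to 129740484, minus strand) had 21, 1 and 7 counts in WT and 28, 11 and 41 counts in *Scd-1*-/- libraries. These overlapped, and the 95% interval of the log2FC of 1.41 reached from -0.316 to 3.14 (edgeR adjusted p = 0.686). *Klri2* did not pass, nor did it without WT replicate 1 (2.62), but in replicates 2 and 3 alone it passed the thresholds (2.60).

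**Figure D2:**
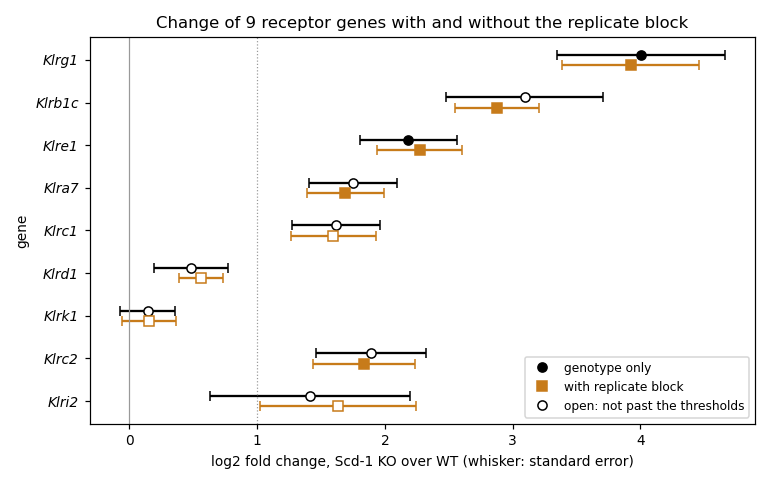
Log2 fold change, *Scd-1*-/- over WT, of 9 receptor genes (horizontal axis, with *Klrc3* left out because WT had no count), with whiskers for the SE. Circles are from edgeR with genotype only and squares from edgeR with the replicate block, and filled symbols passed the thresholds. *Klrg1* and *Klre1* are filled in both fits, *Klrb1c*, *Klra7* and *Klrc2* with the block, and *Klrc1*, *Klrd1*, *Klrk1* and *Klri2* in neither.

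By level, the order in WT was *Klrd1*, *Klra7*, *Klrk1*, *Klrc1*, *Klre1*, *Klrb1c*, *Klrg1*, *Klrc2*, *Klri2* and *Klrc3*, in mean FPKM, which is scaled to gene length. The ranges of neighbours were apart between *Klrd1* and *Klra7*, between *Klrk1* and *Klrc1*, between *Klrc1* and *Klre1* and between *Klri2* and *Klrc3*. In *Scd-1*-/- Teff the order was *Klrd1*, *Klra7*, *Klrc1*, *Klrk1*, *Klrg1*, *Klrb1c*, *Klre1*, *Klrc2*, *Klri2* and *Klrc3*. There the ranges of neighbours were apart only between *Klre1* and *Klrc2*. Summed over the 10 genes, the level ran from 38.9 to 72.6 FPKM in WT and from 86.7 to 142 FPKM in *Scd-1*-/- libraries.

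The cluster that holds 9 of the genes spans 1455 kb, from *Klrb1c* to *Klra7*, and *Klrg1* lies 6496 kb away on the same chromosome. Of 59 genes of the tables in this interval, 39 had a count and 16 were past the FPKM minimum. They comprised 6 of the receptors described, 3 other receptor genes (*Klra5*, *Klra6* and *Klra9*) and 7 other genes, among them *Cd69*, an early activation antigen, *Clec2d* and *Clec2i*, lectin-like ligands, and *Gabarapl1*, an autophagy gene. All 3 other receptor genes were higher in every *Scd-1*-/- library, with log2FC values of 3.41 (*Klra5*), 1.66 (*Klra6*) and 1.21 (*Klra9*), and 0 of them passed the thresholds in edgeR (3 had an unadjusted p under 0.05, 2 passed in DESeq2, and *Klra5* and *Klra6* passed with the block, at 3.44 and 1.74). The 7 other genes lay between -0.467 and 0.841 in log2FC, with a median of -0.0342 and overlapping groups in all 7. Of these, 0 passed in edgeR, with the block or in DESeq2, and 0 had an unadjusted p under 0.05 in edgeR. *Klrd1* and *Klrk1* lay within the range of these 7 genes, the other 4 receptors described and the 3 other receptor genes lay above it, and this difference was not tested. *Klrb1c*, *Klra5* and *Klra9*, with WT means of 0.748, 0.226 and 0.624 FPKM, reached the minimum only through their *Scd-1*-/- libraries.

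**Figure D3:**
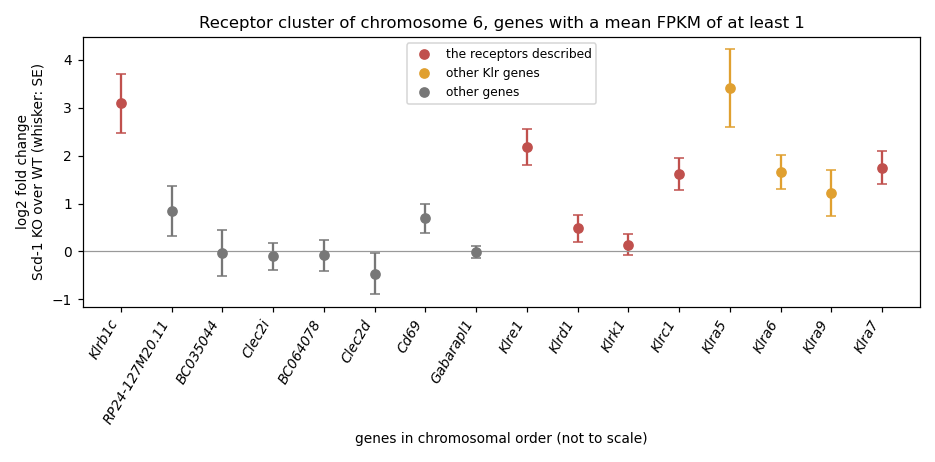
Log2 fold change with its SE (vertical axis), *Scd-1*-/- over WT, of the 16 genes of the receptor cluster past the FPKM minimum, in chromosomal order (horizontal axis, not to scale). Colours mark the 6 receptors described, 3 other receptor genes and 7 other genes. The 7 other genes lie between -0.467 and 0.841, and *Klrd1* and *Klrk1* lie among them.

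Beyond the 10 genes, 18 other lectin-like receptor genes had a count, and 6 were past the FPKM minimum. Of the 18, 0 passed the thresholds in edgeR, where 10 had an unadjusted p under 0.05. With the block 4 passed (*Klra5* and *Klra6* as above, *Klra3* at 1.34 and *Klra13-ps* at 1.52), and in DESeq2 5 did. The median log2FC of the 6, which include *Klra5* and *Klra9* with WT means under 1 FPKM, was 1.56. *Klra6*, an Ly49 family gene, had 7.56, 2.81 and 4.91 FPKM in WT and 13.8, 17.3 and 16.7 FPKM in *Scd-1*-/- libraries, and *Klra1*, of the same family, had 2.85 ± 1.01 and 11.3 ± 4.99 FPKM (SD, n = 3 each). Neither pair of groups overlapped. Ly49 genes are close paralogs of each other, and *Klra7* was identical to *Klra1* at 82.9% of coding bases.

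Activating receptors signal through adaptors, and 3 of 22 adaptor and signalling genes rose past the thresholds in edgeR, with none lower. *Tyrobp*, which encodes DAP12, had 1.99, 2.15 and 3.86 FPKM in WT and 12.3, 30.04 and 31.5 FPKM in *Scd-1*-/- libraries, a log2FC of 3.23 (SE 0.455, edgeR adjusted p = 0.0646). *Fcer1g*, which encodes the Fc receptor gamma chain, had 7.87 ± 2.64 and 49.4 ± 27.1 FPKM (log2FC 2.68), and *Sh2d1b1*, which encodes the SAP-family adaptor EAT-2, had 0.179 ± 0.109 and 2.84 ± 1.65 FPKM (3.97). All *Scd-1*-/- libraries exceeded all WT libraries in these 3 genes, and replicate 1 was the lowest *Scd-1*-/- library in each, as in the 6 receptors whose genotypes were apart. *Hcst*, which encodes DAP10, an adaptor of NKG2D, was at 32.6 ± 10.0 and 40.7 ± 17 FPKM with overlapping groups (log2FC 0.34), and *Cd247*, the CD3 zeta chain, was at 37.9 ± 6.79 and 37.6 ± 7.38 FPKM (0.01). *Tyrobp* did not pass without WT replicate 2 (3.10), and with single libraries left out *Fcer1g* and *Sh2d1b1* passed only without *Scd-1*-/- replicate 1 (3.07 and 4.36). The phosphatase genes that inhibitory receptors recruit, *Ptpn6*, *Ptpn11* and *Inpp5d*, had log2FC values of -0.22, -0.12 and 0.15 and did not pass. *Vav2* was lower in every *Scd-1*-/- library (2.61 ± 0.18 and 1.36 ± 0.121 FPKM, log2FC -0.91, edgeR adjusted p = 0.119). *Plcg1* had a log2FC of -0.75 with overlapping groups (edgeR adjusted p = 0.403) and passed with 1 library left out. Neither gene passed in edgeR with all libraries or with the block. The median log2FC of the 20 genes of this list past the FPKM minimum was 0.153, and 13 of them had a positive log2FC.

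Genes for ligands of the receptors were measured in the same cultures. Of 13 with a count, 0 passed the thresholds in edgeR, with the block or in DESeq2, and 1 had an unadjusted p under 0.05 in edgeR. The median over the 10 past the FPKM minimum was -0.0740 in log2FC. *H2-T23*, which encodes Qa-1, the ligand of CD94 with NKG2 chains, had a mean of 40.0 ± 4.44 FPKM in WT against 31.9 ± 5.70 FPKM without *Scd-1*. *Ulbp1*, a ligand of NKG2D, had 3.56 ± 1.10 and 4.64 ± 0.904 FPKM, and *Cdh1*, which encodes E-cadherin, a ligand of KLRG1, had 0.920 ± 1.09 and 1.75 ± 0.567 FPKM (SD, n = 3 each). All 3 overlapped between genotypes. The *Cdh1* level in WT was 2.18, 0.350 and 0.230 FPKM, and without WT replicate 1, the high one, *Cdh1* passed the thresholds (log2FC 2.63).

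Among 12 genes with a count that accompany KLRG1-high effector cells, 2 rose past the thresholds in edgeR, *Gzma* (log2FC 1.81) and *Prf1* (2.31), which encode granzyme A and perforin, and with the block *Id2* (1.19) passed too. *Prf1* passed without any single library, and *Gzma* not without replicate 2 of WT (1.97) or replicates 2 or 3 of *Scd-1*-/- (1.80 and 1.62). *Tbx21*, which encodes T-bet, a transcription factor tied to KLRG1-high cells, was at 28.2 ± 9.07 and 28.6 ± 8.36 FPKM, and *Zeb2* and *Cx3cr1* were at most 0.168 FPKM in every library. The median log2FC of the 10 genes of this list past the FPKM minimum was 0.549. Among the genes of memory precursor cells, *Tcf7* (log2FC -3.24) and *Id3* (-1.83) fell past the thresholds in edgeR, and with the block *Ccr7* (-1.53) passed as well. *Tcf7* passed without any single library, while with single libraries left out *Id3* passed only without *Scd-1*-/- replicate 1 (-2.24). *Il7r*, which encodes the IL-7 receptor chain that marks memory precursors beside low KLRG1, was at 14.3 ± 1.42 and 14.2 ± 0.662 FPKM (SD, n = 3 each).

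The receptors are also markers of NK cells, which a kit for CD8 T cells is meant to remove. Summed over 10 NK cell markers, of which *Klrb1c* is a receptor described here and *Tyrobp* and *Fcer1g* are adaptors named above, the level was 9.80 to 17.3 FPKM in WT and 35.5 to 114 FPKM in *Scd-1*-/- libraries. Of the 10, 2 passed the thresholds in edgeR (*Tyrobp* and *Fcer1g*), and 4 passed with the block. *Ncr1*, the defining NK cell receptor NKp46, had 0, 0.179 and 0.221 FPKM in WT and 0, 0 and 0.0793 FPKM in *Scd-1*-/- libraries, and *Klra8* and *Klra4* were at 0 in WT and at most 0.103 FPKM in *Scd-1*-/- libraries. *Ncr1*, *Klra8* and *Klra4* were thus at or near 0. *Klrb1c*, *Tyrobp*, *Fcer1g* and *Fcgr3*, an Fc receptor gene, were not, and *Fcgr3* (means of 0.973 ± 0.404 FPKM in WT against 2.61 ± 1.23 without *Scd-1*) passed with the block (log2FC 1.41). *Klra9* was higher in every *Scd-1*-/- library (0.624 ± 0.196 and 1.43 ± 0.809 FPKM, log2FC 1.21) and did not pass in edgeR or with the block. *Klrb1f* overlapped between genotypes (0.230 ± 0.124 and 0.311 ± 0.0366 FPKM, log2FC 0.44). Of the 10 markers, 8 had a positive log2FC. The part of these markers in the result was not tested. Over 7 gamma delta T cell markers, the sum was 102 to 141 FPKM in WT and 197 to 441 FPKM in *Scd-1*-/- libraries. *Trdc*, the constant region of the delta chain, had 2.61, 1.40 and 1.33 FPKM in WT and 7.83, 13.6 and 17.1 FPKM in *Scd-1*-/- libraries, a log2FC of 2.86 (edgeR adjusted p = 0.0629), and it passed the thresholds without any single library. *Tcrg-C1*, *Tcrg-C2* and *Tcrg-C4* passed with the block (log2FC 1.85, 1.23 and 2.01), while *Sox13* and *Zbtb16* were at or near 0. *Trdc* and the 3 *Tcrg* genes thus were higher in every *Scd-1*-/- library, as were the 6 receptors whose genotypes were apart, and lowest in replicate 1 among the *Scd-1*-/- libraries, and their part in the result was not tested.

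Markers of other cells were counted as well. Of 4 CD4 T cell markers, 0 passed in edgeR (1 with an unadjusted p under 0.05) or in DESeq2, and the sums, mostly of *Zbtb7b*, were 6.15 to 12.2 FPKM in WT and 8.01 to 11.2 FPKM in *Scd-1*-/- libraries. *Cd4* itself had 8, 24 and 12 counts in WT and 5, 2 and 1 in *Scd-1*-/- libraries, lower in each of the latter (log2FC -2.49, edgeR adjusted p = 0.344). *Cd40lg* had 0, 5 and 2 counts in WT and 0 in all *Scd-1*-/- libraries. Among the B cell markers, *Cd79a* and *Cd79b* had a count, 0 passed in edgeR (1 with an unadjusted p under 0.05) or in DESeq2, and *Ms4a1* and *Pax5* were at 0. Their sum, nearly all of *Cd79b*, was 9.41 to 10.7 FPKM in WT and 3.13 to 7.99 FPKM in *Scd-1*-/- libraries. *Cd79b*, a chain of the B cell receptor, was lower in every *Scd-1*-/- library (log2FC -1.02, edgeR adjusted p = 0.387, and 0.0434 with the block) without passing the thresholds, and its part in the result was not tested. Of 5 myeloid markers with a count, *Cd14* passed (0.289 ± 0.151 and 1.55 ± 0.378 FPKM, and with single libraries left out only without replicate 1 of either genotype, at 2.93 for WT and 2.60 for *Scd-1*-/-), while *Lyz2* and *Csf1r* were at most 0.113 FPKM. *Itgam* was listed under 2 Ensembl identifiers, which went opposite ways and did not pass. ENSMUSG00000030786 had 16, 0 and 5 counts in WT and 83, 13 and 16 in *Scd-1*-/- libraries (log2FC 2.35, edgeR adjusted p = 0.524, and 0.0464 with the block), and ENSMUSG00000108596 had 40, 9 and 11 against 0, 13 and 21 counts (-0.83, edgeR adjusted p = 0.782). The summed myeloid level was 0.374 to 1.11 FPKM in WT and 1.88 to 2.24 FPKM in *Scd-1*-/- libraries, and its part in the result was not tested.

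**Figure D4:**
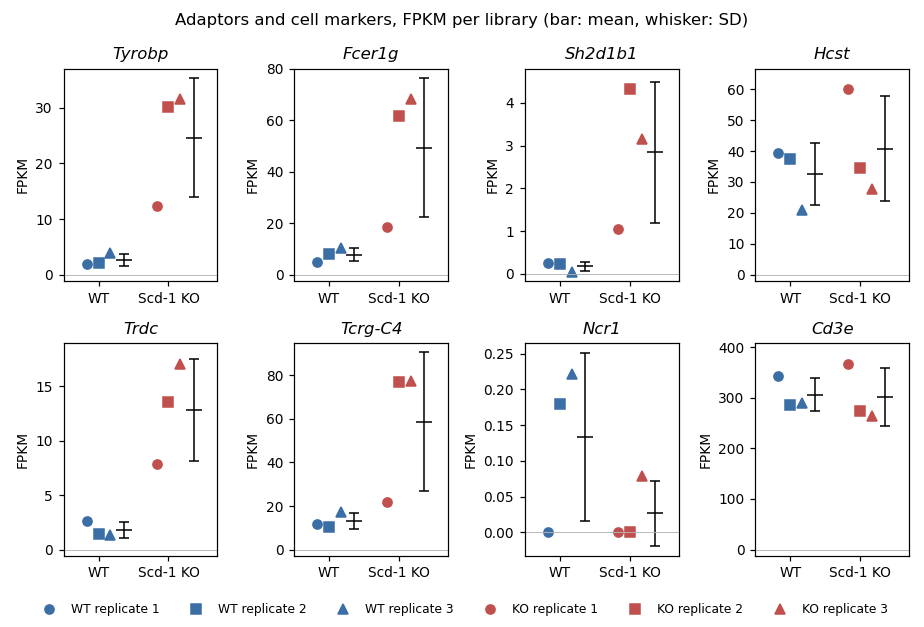
FPKM (vertical axes, linear, a separate scale for each gene) of 4 adaptors (*Tyrobp*, *Fcer1g*, *Sh2d1b1*, *Hcst*), 2 gamma delta T cell genes (*Trdc*, *Tcrg-C4*), the NK cell marker *Ncr1* and the T cell marker *Cd3e* in the 3 WT and 3 Scd-1 KO (*Scd-1*-/-) libraries. Symbols give the replicate number, and bars with whiskers give the mean and SD. The genotypes are apart in *Tyrobp*, *Fcer1g*, *Sh2d1b1*, *Trdc* and *Tcrg-C4*, overlap in *Hcst* and *Cd3e*, and *Ncr1* is at most 0.221 FPKM.

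Over the 6 libraries, the log2 CPM most like that of *Klrg1*, by Pearson's r, was that of *Sh3bgrl* (0.995), *Lyn* (0.994), *Cdkn2b* (0.992), *Ugcg* (0.992) and *Ube2w* (0.990). Most like the mean standardised level of the 7 receptors past the FPKM minimum were *Rfk* (0.996), *Gpatch11* (0.994), *Lilrb4a* (0.993), *S100a13* (0.991) and *Fam92a* (0.990). These are the highest of 9627 genes over 6 points that share the genotype and the replicate 1 difference, so they are a description. *Lyn*, a Src-family kinase, had 0.650 ± 0.154 and 2.02 ± 0.500 FPKM, and *Cdkn2b*, a cyclin-dependent kinase inhibitor, had 1.62 ± 0.724 and 9.54 ± 3.50 FPKM (SD, n = 3 each), and both passed the thresholds in edgeR (with single libraries left out, only without replicate 1 of WT, at 1.83 and 2.98, or of *Scd-1*-/-, at 1.83 and 2.83).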

How the data were processed

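The 6 libraries (3 per genotype) of CD8+ Teff RNA were grouped by the genotype in the labels. The authors aligned reads to GRCm38 with HISAT2 and used StringTie (1.3.0, per the submitters' processing notes), and the annotation, the multi-mapping rule and the strand setting were not given in the sources used here. The methods name a stranded total RNA kit and the labels poly(A) RNA with another kit. The authors deposited whole-number raw counts per gene without normalization, and, beside each count, FPKM. The ratio of count to FPKM differed between libraries only by the library totals (largest deviation 1.8e-05 over 9315 genes), so the deposited FPKM hold no TMM factor.

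Counts were tested with edgeR 4.0.16 (quasi-likelihood test, TMM, genotype only, R 4.3.3) on the 9627 genes that averaged 1 FPKM or more. Results for rarer genes come from the same test on the 17192 genes with any count. The thresholds were those of the study, with Benjamini-Hochberg adjusted p-values beside them. DESeq2 1.42.0 and limma 3.58.1 were alternatives. Standard errors are the log2FC divided by the square root of F. At 14034479 to 15866216 counts per library, a count of 0 allows up to 3, and intervals cover counting error only where so said. Where nothing says that libraries came from separate animals, p-values measure only the spread between these libraries.

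The replicate numbers were taken to pair the libraries because the deviations of same-numbered libraries from their group means correlated at r = 0.595, 0.306 and 0.470 over 9627 genes, although crossed pairs of replicates 2 and 3 had 0.380 and 0.180. The blocked value is given where it changed a call.

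Positions and transcripts are those of GENCODE M21 (34267 of 34745 IDs matched). Promoters are from RefSeq. Named genes are the 10 receptors, hand-written lists (other receptors, adaptors, ligands, KLRG1-high effector, memory precursor and cell type markers), genes of the cluster past the FPKM minimum, and the 5 with the highest correlation with *Klrg1* and with the receptors' mean. Receptors and lists were chosen with earlier results of these data known. Some genes of the memory precursor and B cell lists are not reported here.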

Additional observations from a re-analysis of the deposited data

How the results depend on the processing

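All 10 receptor genes kept a positive log2FC under all 15 alternatives. The number past the thresholds, 2 in edgeR, was 5 with no FPKM minimum, 3 at a minimum of 5, 6 in DESeq2, 5 with the replicate block and 7 in replicates 2 and 3 alone. At a minimum of 5, values of genes under it (*Klrb1c*, *Klre1*, *Klrc2*, *Klrc3* and *Klri2* among the receptors) are those of the test with no minimum, and of the 5 receptors above it 1, *Klrg1*, passed. Leaving out 1 library gave 0 (without WT replicate 3 or *Scd-1*-/- replicate 3) to 6 (without *Scd-1*-/- replicate 1), with 3 without WT replicate 1 and 1 without WT or *Scd-1*-/- replicate 2. An adjusted p under 0.05 was reached by 0 receptors, and by 4, 2, 6, 6 and 9 in the same order of settings, with 0 to 6 when 1 library was left out. Upwards, 0.0727% of the 9627 genes reached it in edgeR, 1.67% in DESeq2 and 2.64% with the block. For the other settings, replicates 2 and 3 alone among them, this share of all genes is not given here. The 9 receptors in replicates 2 and 3 alone include *Klrk1*, at a log2FC of 0.50. Over all genes, 71 passed, against 148 with no FPKM minimum, 43 at a minimum of 5, 161 in DESeq2, 184 with the replicate block, 369 in replicates 2 and 3 alone and 25 (without WT replicate 2 or 3) to 163 (without *Scd-1*-/- replicate 1) with 1 library left out. In the cluster, 1 gene passed, against 5, 2, 8, 6 and 10 in that order, 2 in both limma tests and 0 to 7 with 1 library left out. In the lists of other receptors, adaptors, ligands, effector and memory genes, 8 passed, against 16 in DESeq2, 14 with the replicate block, 21 in replicates 2 and 3 alone and 2 to 15 with 1 library left out. The other scalings and limma left 2 receptors. Among the receptors, the replicate block changed no call beyond those of *Klrb1c*, *Klra7* and *Klrc2*. The cause of these differences was not tested.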
